A study of Saccharomyces cerevisiae with 14 samples.

Results

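The genes described here build the branched-chain amino acids isoleucine, valine and leucine in budding yeast. They were chosen by name: ILV1, ILV2, ILV3, ILV5 and ILV6, LEU1, LEU4 and LEU9, and the aminotransferase genes BAT1 and BAT2. All 10 were matched, with 1 probe set each, among the 5449 Saccharomyces cerevisiae genes that could be named in the expression table. Cells of the wild-type strain YSBN6 were cultured at 30 °C and pH 5 in a stirred batch fermentor, in minimal medium with 20 g/L glucose and 200 mg/L proline as the nitrogen source. Glutamine, a nitrogen source that yeast prefers to proline, was then added as a pulse to 400 mg/L at an OD600 of about 1. Samples taken 7 and 24 min after the pulse and 10 min before it (steady growth on proline, written −10 min) came from 3 experiments (biological replicates), coded BY003, BY008 and BY012. Samples at 3, 10, 14, 56 and 120 min came from BY008 alone, so those times have no replicate. Every group thus shares the genotype, the glucose and the proline already in the medium, and no culture without a pulse was analysed here.

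Leucine, isoleucine and valine are made by pathways that share enzymes, most of them in the mitochondrion. For isoleucine, threonine is first deaminated by threonine deaminase (ILV1). Acetolactate synthase (ILV2, with its regulatory subunit ILV6), acetohydroxyacid reductoisomerase (ILV5) and dihydroxyacid dehydratase (ILV3) then serve isoleucine and valine alike. The leucine branch leaves the valine pathway at α-isopropylmalate synthase, which is encoded by the paralogs LEU4 and LEU9, and continues through isopropylmalate isomerase (LEU1) and isopropylmalate dehydrogenase (LEU2). The last step, the transfer of an amino group from glutamate, is reversible and is carried out by a mitochondrial enzyme (BAT1) and a cytosolic paralog (BAT2). BAT2 is known mainly for the catabolic direction, in which branched-chain amino acids serve as nitrogen sources. The factor Leu3 activates several of these genes when it binds α-isopropylmalate, and Gcn4 activates them under amino acid starvation.

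The 14 arrays had median intensities between 159 and 279 over all probe sets. By replicated time the medians were 226 to 279 at −10 min, 201 to 214 at 7 min and 159 to 187 at 24 min. The members lay between 8.76 and 14.38 on the log2 intensity scale at the replicated times. This is above the 99th percentile of the Schizosaccharomyces pombe probe sets on the same arrays (6.37 to 7.63), a measure of unspecific signal. Probe sets differ in brightness per transcript, so levels are compared only within a gene, and the arrays are bulk samples in which fewer cells with a transcript and less transcript per cell cannot be told apart. The BY012 array at −10 min stood apart: 5 of 5 stress marker genes were above both other −10 min arrays and 4 of 4 ribosomal protein marker genes below both. Called changes reported below that moved by over 1.5 times or lost their call without it are given both ways. Changes that were not called are mostly given with all arrays alone.

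After the glutamine pulse most of the ILV genes, LEU9 and BAT1 rose, and BAT2 fell. At 7 min against −10 min, 6 of the 10 members were higher and 0 were lower at an adjusted p under 0.05 in limma, beside 16.7% and 35.7% of all genes. No member was lower at an unadjusted p under 0.05 either. At 24 min, 5 members were higher and 1 was lower, beside 24.1% and 44.9% of all genes. The members' median log2 change was 0.55 at 7 min and 0.51 at 24 min, while the median over all genes was −0.33 at both times. Subtracting each array's median moved the median over all genes to −0.14 at 7 min and −0.05 at 24 min, and the members' median to 0.75 and 0.79. It moved the calls over all 5449 genes at 7 min from 910 higher and 1947 lower to 1158 and 1320. At 24 min they moved from 1312 and 2444 to 1738 and 1938. The arrays at 7 min and −10 min did not overlap for 6 members that were higher and 1 that was lower (LEU4), beside 19.5% and 44.2% of all genes. The 24 min arrays were clear of the −10 min arrays for 5 members that were higher and 1 that was lower, beside 26.0% and 47.2% of all genes. Between 24 min and 7 min only BAT2 passed the test, lower at 24 min, beside 20.2% of all genes lower and 13.2% higher. The arrays of these times did not overlap for 3 members that were higher at 24 min (ILV1, ILV6 and LEU9) and 2 that were lower (ILV5 and BAT2), beside 28.1% and 28.3% of all genes. Over the 3 replicated times together, limma's F test called 7 members, beside 73.4% of all genes, and ILV6, LEU1 and LEU4 were not called.

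Leaving out an experiment lowered the number of calls among the members and among all genes. Without BY003 only LEU9 was called at 7 min, beside 25.2% of all genes in either direction instead of 52.4%. The 5 lost calls kept changes close to those with all arrays, 0.61 for ILV1, 0.41 for ILV2, 1.18 for ILV3, 0.79 for ILV5 and 1.28 for BAT1. Without BY012 the calls at 7 min were 3, beside 40.0% of all genes. At 24 min the members called numbered 4 without BY003, 7 without BY008 and 5 without BY012, beside 51.1%, 63.8% and 62.8% of all genes, instead of 68.9% with all arrays.

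**Figure D1:**
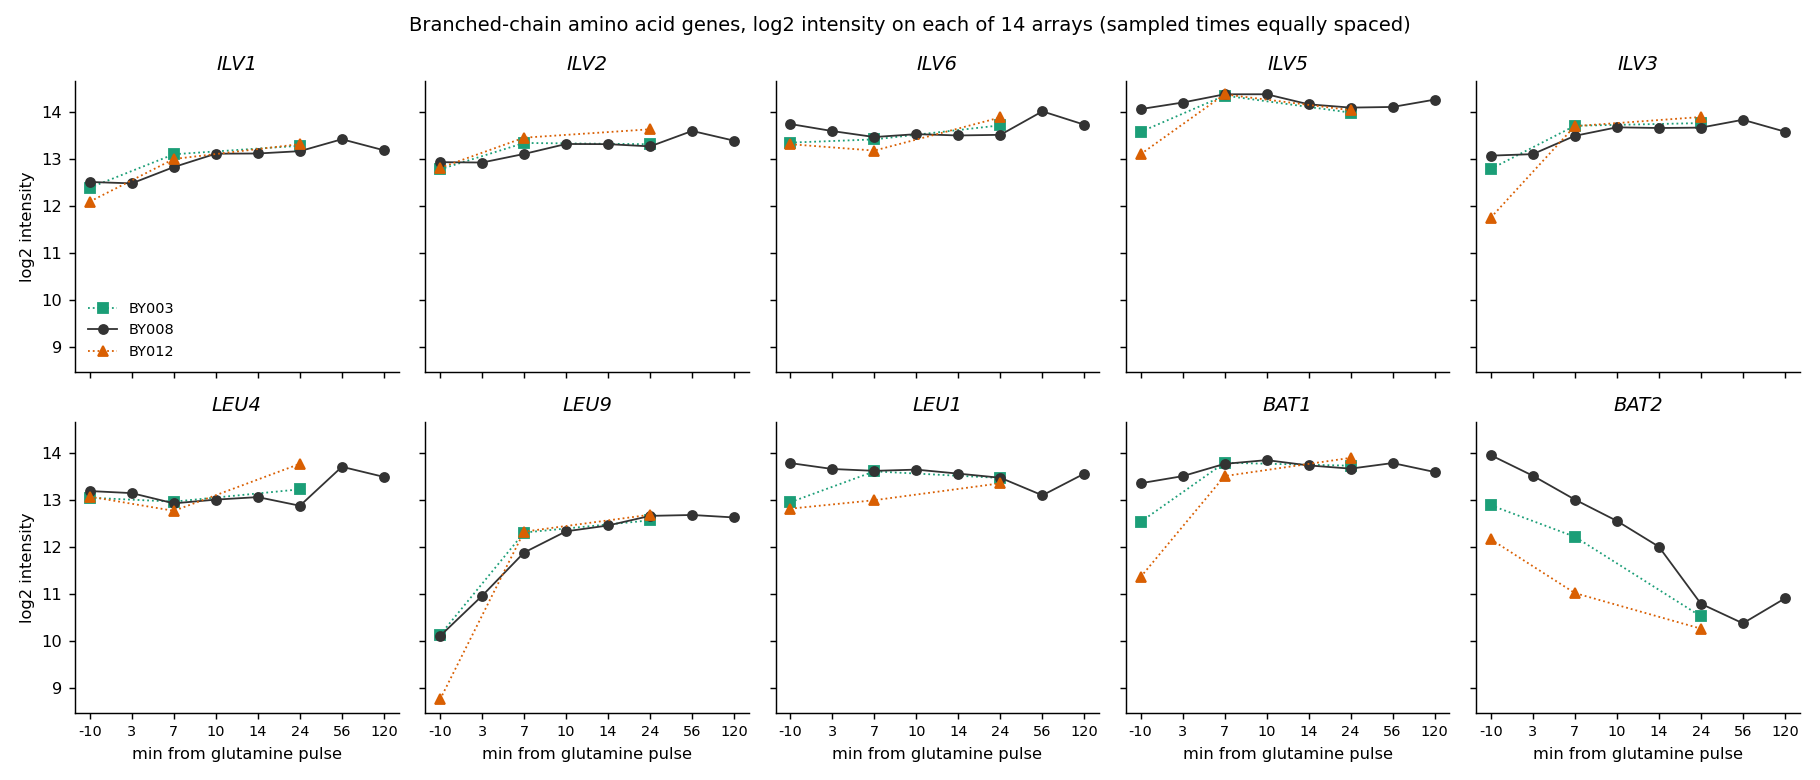
Log2 intensity of the 10 members (1 panel each) by time in minutes, 1 symbol per array, for BY003 (green squares, dotted line), BY008 (dark circles, solid line) and BY012 (orange triangles, dotted line); the time axis is evenly spaced and not to scale. LEU9 lies between 8.76 and 10.13 before the pulse and between 12.57 and 12.69 at 24 min, whereas BAT2 lies between 12.16 and 13.95 before it and between 10.26 and 10.79 at 24 min.

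ILV1, the entry into isoleucine synthesis, had log2 intensities of 12.39, 12.51 and 12.09 at −10 min, 13.10, 12.83 and 13.00 at 7 min and 13.28, 13.17 and 13.32 at 24 min, in the order BY003, BY008 and BY012 that all later lists keep. All 7 min arrays were above all −10 min arrays, and all 24 min arrays were above those at 7 min. The log2 change was 0.64 ± 0.15 at 7 min (SE, n = 3 per time, limma adjusted p = 0.00619) and 0.92 ± 0.15 at 24 min (adjusted p = 0.000452), a 1.90-fold difference. The 24 min call held in every alternative, with changes between 0.77 and 1.20.

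ILV2, the catalytic subunit of acetolactate synthase, read 12.78, 12.93 and 12.81 at −10 min, 13.34, 13.11 and 13.45 at 7 min and 13.31, 13.27 and 13.63 at 24 min. The 7 min and 24 min arrays were all above the −10 min arrays. The rise was 0.46 ± 0.15 at 7 min (adjusted p = 0.0304) and 0.56 ± 0.15 at 24 min (adjusted p = 0.00860). Without the BY012 array at −10 min the 7 min change was 0.44 and not called (adjusted p = 0.0556), and without BY003 the 24 min change was 0.58 and not called (adjusted p = 0.0951). Its regulatory subunit ILV6 was not called at either time. ILV6 lay between 13.18 and 13.47 at 7 min and between 13.51 and 13.88 at 24 min, against 13.32 to 13.74 at −10 min. Its log2 change at 24 min was 0.24 ± 0.17 (adjusted p = 0.240), and with array medians subtracted it was 0.52 and passed the test (adjusted p = 0.0329).

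ILV5, the reductoisomerase, which also has a role in keeping mitochondrial DNA, read 13.58, 14.06 and 13.10 at −10 min, 14.35, 14.38 and 14.37 at 7 min and 13.99, 14.09 and 14.04 at 24 min. Of the replicated times, 7 min had the highest array in all 3 experiments, and its arrays lay within a narrow band, while the −10 min arrays were spread widely. The rise at 7 min was 0.79 ± 0.21 (adjusted p = 0.0132), and without BY012 it was 0.54 and not called (adjusted p = 0.0654). At 24 min the log2 change was 0.46 ± 0.21 (adjusted p = 0.0809). That value was called with array medians subtracted (0.74, adjusted p = 0.0199) and without BY008 (0.67, adjusted p = 0.0268). It was smaller and not called without BY012 (0.22, adjusted p = 0.343) or without only its −10 min array (0.22, adjusted p = 0.233).

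ILV3, the dehydratase, read 12.79, 13.07 and 11.75 at −10 min, 13.71, 13.49 and 13.70 at 7 min and 13.76, 13.67 and 13.89 at 24 min. Every 7 min and 24 min array was above every −10 min array, and the lowest value of all was the BY012 array at −10 min. The rise was 1.10 ± 0.29 at 7 min (2.14-fold, adjusted p = 0.0121) and 1.24 ± 0.29 at 24 min (2.36-fold, adjusted p = 0.00413). Without BY012 the changes were smaller, 0.67 at 7 min (adjusted p = 0.0220) and 0.79 at 24 min (adjusted p = 0.00730), and both stayed past the threshold. Without only its −10 min array they were 0.70 (adjusted p = 0.00556) and 0.84.

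In the leucine branch the paralogs of α-isopropylmalate synthase differed. LEU4, which encodes the major synthase, read 13.05, 13.19 and 13.07 at −10 min, 12.96, 12.93 and 12.77 at 7 min and 13.23, 12.88 and 13.77 at 24 min. The 7 min arrays were all slightly below the −10 min arrays, and at 24 min the experiments went different ways. Neither change passed the test, with −0.22 ± 0.21 at 7 min (adjusted p = 0.396) and 0.19 ± 0.21 at 24 min (adjusted p = 0.442). With array medians subtracted these were −0.02 and 0.47, also not called.

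LEU9, the minor synthase gene, read 10.13, 10.11 and 8.76 at −10 min, 12.31, 11.88 and 12.33 at 7 min and 12.57, 12.66 and 12.69 at 24 min. The groups were far apart, and the 24 min arrays lay close together. The rise was 2.51 ± 0.33 at 7 min (5.68-fold, adjusted p = 0.000307) and 2.97 ± 0.33 at 24 min (7.85-fold, adjusted p = 4.51e-05). At 24 min LEU9 held rank 112 of 5449 genes from the highest change. Both calls held in every alternative, with changes of 1.98 to 2.87 at 7 min and 2.50 to 3.39 at 24 min.

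LEU1, the isomerase that acts on the product of LEU4 and LEU9, lay between 13.00 and 13.62 at 7 min and between 13.36 and 13.47 at 24 min, against 12.82 to 13.78 at −10 min. The groups overlapped, with changes of 0.22 ± 0.27 at 7 min (adjusted p = 0.491) and 0.25 ± 0.27 at 24 min (adjusted p = 0.426). Without the BY012 array at −10 min the LEU1 changes were 0.04 and 0.06, also not called. LEU2, the dehydrogenase after it, was no member of the list and rose by 0.99 ± 0.26 at 7 min (adjusted p = 0.0120). Its change at 24 min was 0.41 ± 0.26 (adjusted p = 0.196), and without BY003 the 7 min change of LEU2 was not called either (0.84, adjusted p = 0.138).

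BAT1, the mitochondrial aminotransferase, read 12.53, 13.36 and 11.36 at −10 min, 13.79, 13.77 and 13.51 at 7 min and 13.73, 13.67 and 13.90 at 24 min. The 7 min and 24 min arrays were alike and all above the 3 arrays at −10 min, which were spread widely. The rise was 1.27 ± 0.40 at 7 min (2.42-fold, adjusted p = 0.0250) and 1.35 ± 0.40 at 24 min (2.54-fold, adjusted p = 0.0139). Within the experiments the 24 min change was 1.20 in BY003, 0.31 in BY008 and 2.54 in BY012. The size depended on BY012: without that experiment the changes were 0.84 (adjusted p = 0.0524) and 0.75 (adjusted p = 0.0501), and without only its −10 min array they were 0.75 (adjusted p = 0.0332) and 0.82 (adjusted p = 0.0156). Without BY003 the changes were as large, 1.28 at 7 min (adjusted p = 0.152) and 1.42 at 24 min (adjusted p = 0.0908), but not called.

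BAT2, the cytosolic aminotransferase, read 12.89, 13.95 and 12.16 at −10 min, 12.22, 13.01 and 11.02 at 7 min and 10.53, 10.79 and 10.26 at 24 min. The 7 min arrays overlapped with those before the pulse, although each was lower than its own experiment's −10 min array, and the 24 min arrays were below all arrays at 7 min and −10 min. The log2 change at 7 min was −0.92 ± 0.53 (adjusted p = 0.168). The 3 experiments gave −0.67, −0.94 and −1.14, and with the experiment as a replicate block the change passed the test (adjusted p = 0.0197). At 24 min BAT2 fell by 2.47 ± 0.53 on the log2 scale (5.55-fold lower, adjusted p = 0.00244), with −2.36, −3.16 and −1.90 in the experiments. That call held in every alternative, with changes between −2.89 and −2.13. BAT2 held rank 399 of 5449 genes from the lowest change. At 24 min against 7 min the change was −1.55 ± 0.53 (adjusted p = 0.0490), which was not called without BY003 (−1.49, adjusted p = 0.284), without BY008 (−1.22, adjusted p = 0.0905) or with array medians subtracted (−1.47, adjusted p = 0.0631).

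**Figure D2:**
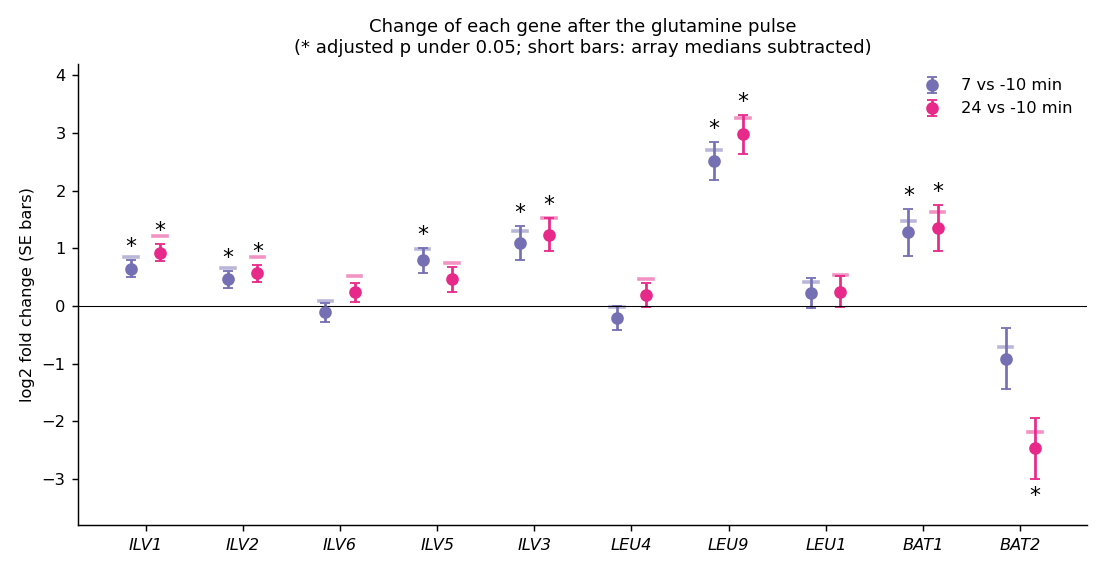
Log2 fold change against −10 min of the 10 members at 7 min and 24 min, as the limma estimate (point) with its SE (error bar); asterisks mark an adjusted p under 0.05 and short pale bars the estimate with array medians subtracted. LEU9 is highest (2.51 and 2.97) and BAT2 lowest (−0.92 and −2.47), and 6 members carry an asterisk at each time.

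The paralogs were compared through their log2 difference within each array, which removes what scales a whole array and leaves an unknown offset between probe sets. The difference of BAT1 minus BAT2 was −0.35, −0.60 and −0.80 at −10 min, 1.57, 0.76 and 2.49 at 7 min and 3.20, 2.87 and 3.63 at 24 min. It was higher at each later time in all 3 experiments, with no overlap between any of these times. BAT1 gained on BAT2 by 2.19 ± 0.52 log2 units at 7 min (SE of the difference, n = 3 per time) and by 3.82 ± 0.26 at 24 min, a 14.1-fold change in their ratio. Within the experiments the 24 min gain was 3.56, 3.47 and 4.44, so at that time it varied less than the change of BAT1. The 7 min gain was spread more widely, at 1.93, 1.36 and 3.29 (SD 0.99, against 0.53 at 24 min). The exact two-sided permutation test gave p = 0.1 at both times, the smallest value that 3 arrays against 3 allow.

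The difference of LEU4 minus LEU9 was 2.92, 3.08 and 4.31 at −10 min, 0.66, 1.05 and 0.44 at 7 min and 0.66, 0.22 and 1.08 at 24 min. The −10 min arrays were above all the others, and the arrays at 7 min and 24 min overlapped. LEU4 lost ground to LEU9 by −2.72 ± 0.47 log2 units at 7 min, a 6.60-fold change in the ratio, and by −2.79 ± 0.51 at 24 min, a 6.90-fold change. The exact permutation test again gave p = 0.1, the smallest possible, at both times. Between 24 min and 7 min the difference was −0.06 ± 0.31 (exact permutation p = 1.0). Changes of the BAT pair thus went on between the replicated times, with a further 1.63 ± 0.55 (exact permutation p = 0.1), whereas those of the LEU pair overlapped. Whether the pairs differ in this was not tested.

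**Figure D3:**
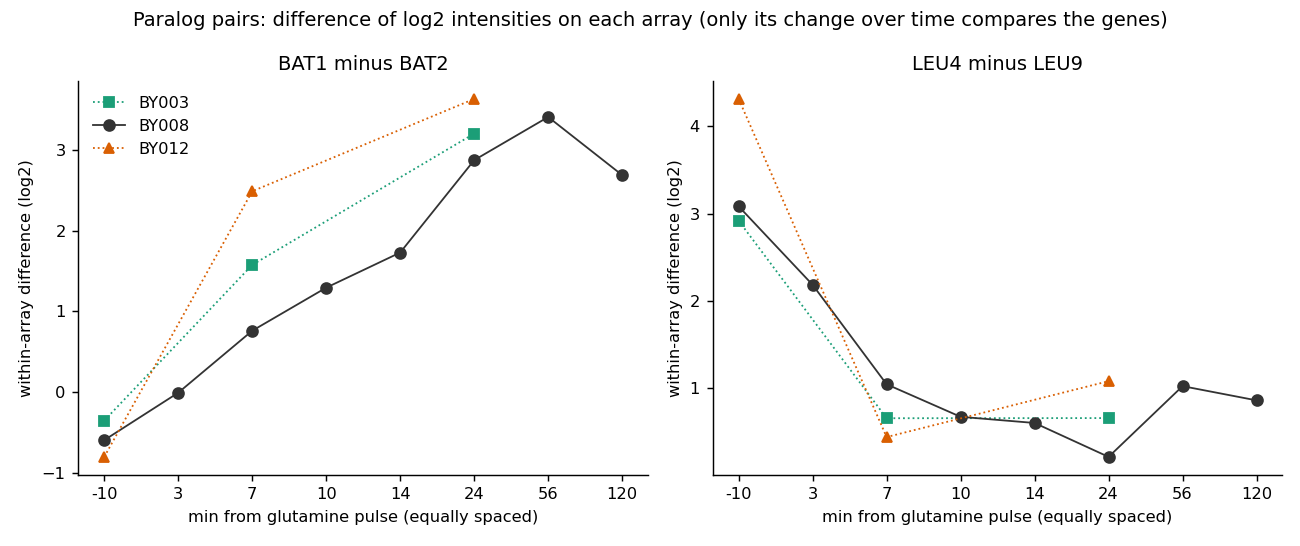
Within-array log2 difference of BAT1 minus BAT2 and of LEU4 minus LEU9 by time in minutes, 1 symbol per array and experiment, on an evenly spaced time axis. The BAT difference lies between −0.80 and −0.35 before the pulse and between 2.87 and 3.63 at 24 min; the LEU difference lies between 2.92 and 4.31 before it and between 0.22 and 1.08 at 24 min.

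BY008 was sampled at all 8 times, and its course is a description of 1 experiment. At 3 min LEU9 was the only member to differ from the −10 min array by more than 0.5 in size (0.85). The difference of LEU9 then reached 1.78 by 7 min and 2.23 by 10 min, with 2.35 at 14 min, 2.55 at 24 min, 2.57 at 56 min and 2.52 at 120 min. Most of its 24 min value was thus present by 7 min, and it lay on a plateau from 24 min on.

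BAT2 was slower in BY008 and kept falling for longer. Its differences were −0.44 at 3 min, −0.94 at 7 min, −1.40 at 10 min, −1.95 at 14 min, −3.16 at 24 min, −3.58 at 56 min and −3.05 at 120 min. The value at 56 min was 11.9-fold below that before the pulse, and most of the 24 min change was present by 14 min. From 10 min on LEU9 was the only member at least 2-fold higher and BAT2 the only one at least 2-fold lower. Of all genes, 10.5% were at least 2-fold higher at 10 min, 11.3% at 14 min, 13.3% at 24 min, 12.4% at 56 min and 8.53% at 120 min. The shares at least 2-fold lower were 19.4%, 22.9%, 25.4%, 17.6% and 12.2% at the same times.

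The other members moved less in BY008. BAT1 stayed between 0.15 and 0.49 above its −10 min value at every later time, the smallest response of this gene among the experiments at the shared times. ILV1, ILV2 and ILV3 were within 0.03 of their −10 min values at 3 min and were highest at 56 min (0.91, 0.66 and 0.76). ILV5 was highest at 10 min (0.32) and near its −10 min value at 24 min (0.03). LEU1 was below its −10 min value at all 7 later times, with the lowest difference at 56 min (−0.69). LEU4 and ILV6 were below it up to 24 min and above it at 56 min (0.52 and 0.27). The median difference over all genes in BY008 was also negative from 7 min on, between −0.34 (10 min) and −0.18 (56 min). With array medians subtracted, LEU1, LEU4 and ILV6 were at 0.08, 0.04 and 0.01 at 10 min. At 24 min they were at −0.11, −0.11 and −0.03, and LEU1 was at −0.59 at 56 min.

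**Figure D4:**
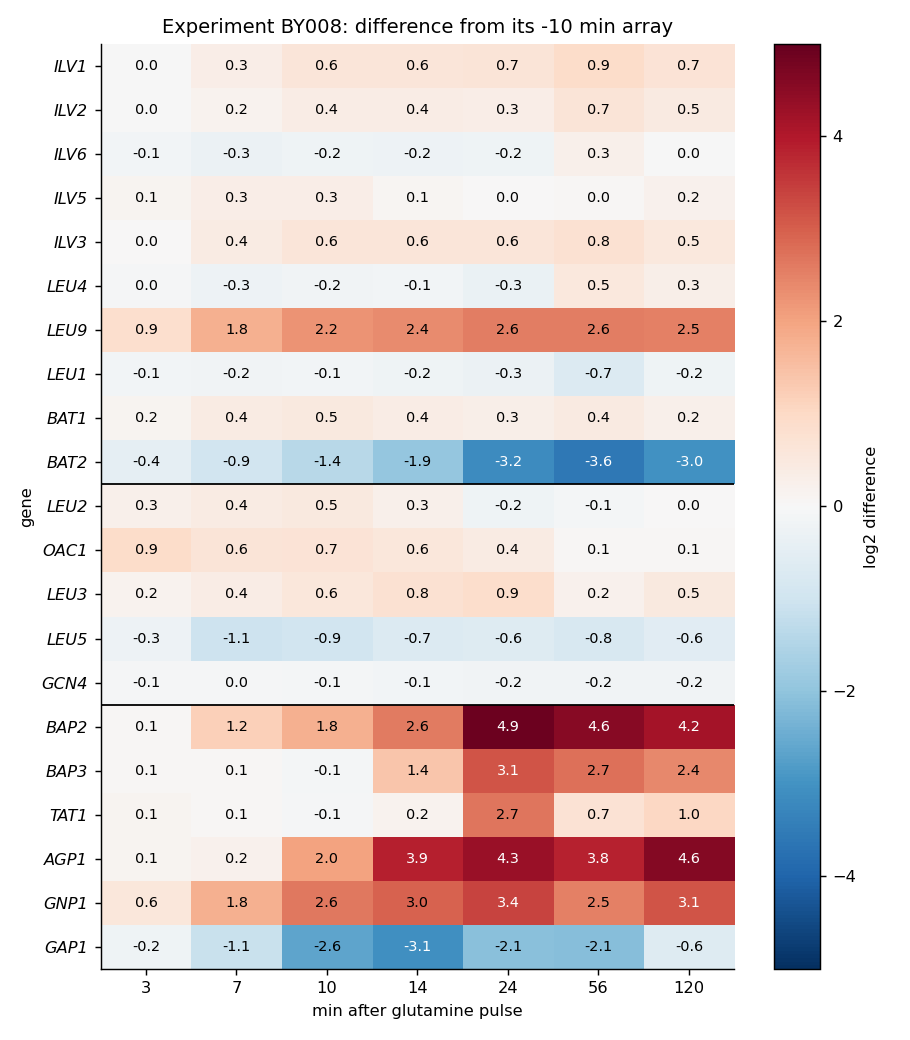
Log2 difference from the −10 min array in BY008, with genes in rows (the 10 members, then related genes and permeases) and the 7 later times in minutes in columns, 1 array each. LEU9 is positive at every time and reaches 2.57, and BAT2 is negative at every time and reaches −3.58.

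Other genes around the pathway were taken from lists chosen by function. Of 6 genes for the leucine branch and its control, 3 rose (LEU2, OAC1 and LEU3) and 2 fell (LEU5 and MMF1) at 7 min. Of all genes, 16.7% were called higher and 35.7% lower at 7 min, and 24.1% and 44.9% at 24 min. OAC1, the mitochondrial carrier that exports α-isopropylmalate, rose by 1.44 ± 0.31 at 7 min (adjusted p = 0.00403) and 1.19 at 24 min (adjusted p = 0.00677), and without BY003 neither was called (adjusted p = 0.0647 and 0.0656). LEU5, which is needed for coenzyme A import into mitochondria, had changes of −1.17 ± 0.19 (adjusted p = 0.000893) and −0.99 (adjusted p = 0.00116). The regulator gene LEU3 rose by 0.66 at 24 min (adjusted p = 0.0196), a call that was lost without BY003 (adjusted p = 0.057) or BY008 (adjusted p = 0.0971), and its 7 min call was lost without any of the experiments (adjusted p = 0.0724 to 0.244). MMF1, a mitochondrial protein needed for isoleucine synthesis, had changes of −0.53 and −0.43. With array medians subtracted these were −0.33 (adjusted p = 0.157) and −0.15 (adjusted p = 0.469), and neither was called. The 7 min call was also lost without BY003 or BY012 (adjusted p = 0.136 and 0.129). At 24 min it was lost without BY003, BY008 or BY012 (adjusted p = 0.221, 0.0845 and 0.0675) or the BY012 array at −10 min (−0.44, adjusted p = 0.0697). GCN4, whose protein level is controlled mostly by translation, had a change of 0.00 at 7 min (adjusted p = 0.994) and −0.17 at 24 min (adjusted p = 0.202).

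Of 6 genes for threonine, the substrate of ILV1, 2 rose at 7 min (HOM3 by 2.07 and THR4 by 0.87). For these and the next lists, the shares of all genes were 16.7% higher and 35.7% lower at 7 min. At 24 min they were 24.1% and 44.9%. At 7 min HOM3 was not called without BY008 (1.96, adjusted p = 0.0568), nor THR4 without BY003 (0.93, adjusted p = 0.0860). At 24 min 4 rose, HOM3, HOM2, THR1 and THR4, with changes of 1.40, 0.92, 1.07 and 1.17, and no gene of the list was lower at an unadjusted p under 0.05. Without the BY012 array at −10 min the HOM3 change was 0.84 and was not called. The changes of HOM2 and THR1 were 0.56 and 0.71 without it and stayed past the threshold. Without BY003, HOM2 and THR1 were not called at 24 min (adjusted p = 0.124 and 0.0574). HOM3 was not called at 24 min without BY008 (adjusted p = 0.0759) or BY012 (adjusted p = 0.237), nor HOM2 without BY012 (adjusted p = 0.0776). CHA1, the catabolic counterpart of ILV1 that degrades serine and threonine, fell by 1.28 on the log2 scale at 7 min (adjusted p = 0.0334), a call lost with array medians subtracted (adjusted p = 0.0683) and without BY008 or BY012 (adjusted p = 0.130 and 0.137), and −0.89 without the BY012 array at −10 min (adjusted p = 0.118). CDC60, ILS1 and VAS1, the 3 genes for the leucyl-, isoleucyl- and valyl-tRNA synthetases, rose at both times, by 0.81, 0.98 and 0.72 at 7 min and 0.94, 1.30 and 1.29 at 24 min. Without the BY012 array at −10 min the 7 min changes of CDC60 and VAS1 were 0.47 and 0.47, and that of CDC60 at 24 min was 0.61, all still called. Without BY003, CDC60 was called at neither time (adjusted p = 0.110 and 0.0506), nor VAS1 at 7 min (adjusted p = 0.113).

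Of 6 amino acid permease genes, 2 rose at 7 min and 5 at 24 min, beside 16.7% and 24.1% of all genes. The branched-chain permease gene BAP2 rose by 4.78 ± 0.21 on the log2 scale at 24 min, with the BY003 array at −10 min (6.54) inside the unspecific signal. BAP3 was at least 10.3-fold higher at 24 min, since its −10 min values (6.02 to 6.14) were below the 99th percentile of the S. pombe probe sets on those arrays (6.37 to 6.78), which served as the floor. At 7 min BAP2 was 0.97 ± 0.21 higher (0.91 and not called without BY003, adjusted p = 0.0710), and BAP3 had a change of 0.07 ± 0.27 (adjusted p = 0.839), with means of 6.14 at 7 min and 6.07 at −10 min that lie within the range of the unspecific signal. LEU9 had by then made most of its change. The broader permease genes TAT1, AGP1 and GNP1 rose by 1.86, 3.78 and 2.92 at 24 min, and GNP1 was already up by 2.21 at 7 min. GAP1, the general amino acid permease, was the 1 permease gene that fell, with changes of −1.38 ± 0.23 at 7 min and −2.27 ± 0.23 at 24 min. Of all genes, 35.7% and 44.9% were called lower at these times. The step after BAT2 breaks down branched-chain keto acids to alcohols and esters. Of 8 genes for it, 3 fell at 24 min (ARO10, PDC6 and ATF1), beside 44.9% of all genes. PDC5 rose by 0.60 (adjusted p = 0.0458), and 24.1% of all genes were called higher. The median log2 change of these 8 genes was −0.12 at 24 min, against −0.33 over all genes. The changes of PDC6 and ATF1 were −1.54 and −1.53. ARO10 read 5.41 to 6.11 at 24 min, inside the unspecific signal, against 7.39, 7.53 and 10.63 at −10 min, so it was at least 1.99-fold lower (adjusted p = 0.00752), and without the BY012 array at −10 min no fold could be given. PDC5 was not called without that array (0.55, adjusted p = 0.108). Without BY003 neither PDC6 nor PDC5 was called (adjusted p = 0.0721 and 0.167).

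Most members varied more before the pulse than at 7 min and 24 min, while ILV2 and LEU4 did not, nor BAT2 at 7 min. Over the 3 experiments the members' median SD came to 0.50 before the pulse, 0.16 at 7 min and 0.12 at 24 min, against 0.27, 0.18 and 0.17 for all genes. For BAT1 the SD was 1.00 before the pulse and 0.16 and 0.12 after it. BAT2 had an SD of 0.90 before the pulse, 1.00 at 7 min and 0.26 at 24 min. ILV2 had an SD of 0.08 before the pulse and 0.18 and 0.20 after it, and LEU4 had 0.08 before it and 0.10 and 0.45 after it. The BY012 array at −10 min lay below both other −10 min arrays for 8 of 10 members and above both for 0, with ILV2 and LEU4 between. Of all genes, 1623 of 5449 lay below both and 2652 above. The 4 largest gaps to the mean of the other arrays were −1.58 for BAT1, −1.36 for LEU9, −1.26 for BAT2 and −1.18 for ILV3. The summed intensity of the 5 stress markers ranged from 41016 to 74473 at 7 min and from 14258 to 20096 at 24 min, against 60477 to 118909 at −10 min, with the highest value in BY012. That of the 4 ribosomal protein markers ranged from 94235 to 98481 at 7 min and from 97344 to 99257 at 24 min, against 51607 to 81149 at −10 min, with the lowest value in BY012. The part of these markers in the members' changes was not tested.

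Across the 14 arrays, of which 8 come from BY008, the members fell into several patterns, given as Pearson's r of log2 values without a test. LEU9 correlated with ILV1 (0.96) and ILV3 (0.96), and ILV1 with ILV2 (0.94). These values were 0.95, 0.96 and 0.94 without the BY012 array at −10 min. ILV6 correlated with LEU4 (0.88). ILV3 and BAT1 had a value of 0.96, which was 0.85 without that array. Over all arrays the paralogs did not run together, with −0.26 for BAT1 and BAT2 and 0.22 for LEU4 and LEU9. Without that array these values were −0.41 and 0.22. At −10 min alone, BAT1 and BAT2 were both highest in BY008 and lowest in BY012.

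The genes outside the list with the highest correlation also differed between paralogs. For LEU9 the 5 highest were the ribosomal protein genes RPS8B, RPL12A, RPS1A, RPL6B and RPL13A, with values from 0.990 to 0.994. For LEU4 they were ARG7 and TRP3 (arginine and tryptophan synthesis), FOL2, NTG1 and PUT3 (the activator of the proline genes), at 0.88 to 0.91. BAT1 was most like ELO3, SES1, URA5, RPL3 and FRS1, at 0.96 to 0.99, and the values were 0.85 to 0.96 without the BY012 array at −10 min. BAT2 was most like the alanine transaminase gene ALT1 (0.97), followed by PNP1, YIR042C, WWM1 and SRS2. The arrays share 1 time course, so any genes that change early and stay changed correlate.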

How the data were processed

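The 14 arrays were Affymetrix yeast arrays hybridised with biotin-labelled RNA, 1 per experiment and time. The authors deposited 1 linear intensity value per probe set and array. R 2.10.0, affy and RMA are named in the submitters' processing notes, which do not give the settings or their order. Of 10928 probe sets, 5498 carried 1 S. cerevisiae gene in the platform annotation, and 12 symbols were updated through RefSeq. Where a gene had several probe sets (47 genes), the brightest was kept. Log2 of the deposited intensity was fitted with limma 3.58.1 (R 4.3.3), with 1 mean per time over all 14 arrays (6 residual degrees of freedom), eBayes and Benjamini-Hochberg adjustment over 5449 genes, and an adjusted p under 0.05 was called. The fit was tested on simulated data for 7 min against −10 min. Simulated shifts of 0.5 on the log2 scale were detected in 9 of 67 genes. Shifts of 1.0 were detected in 39 of 67 and shifts of 2.0 in 57 of 66, with 5 false calls. The share first required at 2.0 was not reached, and the criterion was changed after that result. A missing call therefore does not exclude a shift of about 0.5. Paralog differences were tested by exact two-sided permutation (scipy 1.17.1). The number of arrays limits the precision.

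The experiment codes in the labels were taken to mark samples of 1 culture, which would pair them across times. The labels do not state this. The main fit and the permutation tests did not use the pairing, while the replicate block did. An exact sign-flip test of the paired paralog changes against −10 min gave p = 0.25 for both pairs at 7 min and 24 min. That is the smallest value it allows. Deviations of the same experiment's arrays correlated by −0.05 to 0.21 in BY003, 0.36 to 0.63 in BY008 and 0.08 to 0.56 in BY012. All members are named. From the other lists, counts are given with values of called genes, and for BAT1, BAT2, LEU4 and LEU9 the 5 genes with the highest correlation. The members and lists were chosen with earlier results of these data known. A comparison of promoter motifs and proteins was planned, but no sequences were used here. Alternatives were array medians subtracted, quantile normalization, the replicate block, each experiment left out, the BY012 array at −10 min left out, dim genes left out, limma's trend and robust options, the mean over probe sets and a threshold of 0.01. Both combinations with array medians subtracted were added after seeing the data. For genes whose dimmer arrays all lay below the 99th percentile of the S. pombe probe sets, that percentile served as a floor and a bound is given, also added after seeing the data.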

Additional observations from a re-analysis of the deposited data

How the results depend on the processing

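The 6 member calls at 7 min (52.4% of all genes called in either direction) became 2 at an adjusted p under 0.01 (33.4%). With an experiment or the BY012 array at −10 min left out they ranged from 1 (without BY003, 25.2%) to 6 (without BY008, 44.2%). The 6 calls at 24 min (68.9%) ranged from 4 (without BY003, 51.1%) to 7 (without BY008, 63.8%) in those settings. They were 8 with array medians subtracted (67.5%). The 7 calls over the 3 replicated times (73.4%) became 4 at 0.01 (56.2%). With arrays left out they ranged from 2 (without BY003, 45.4%) to 7 (without BY008, 65.3%, or the BY012 array at −10 min, 72.1%). The 1 call between 24 min and 7 min (33.3%) became 0 with array medians subtracted (35.4%), with quantile normalization (33.6%) and at 0.01 (16.9%). In these settings 2, 2 and 1 members had an unadjusted p under 0.05 in limma. With arrays left out the calls ranged from 0 (without BY003 or BY008, 7.12% and 22.7%) to 2 (without the BY012 array at −10 min, 39.5%). They were 3 without that array and with array medians subtracted together (43.5%), a setting added after seeing the data. With experiment as a replicate block the calls were 7 at 7 min (60.6%) and 6 at 24 min (72.9%). BAT2 at 7 min was the 1 member call it changed (adjusted p = 0.0197). Both paralog changes against −10 min kept their direction with each experiment, or the BY012 array at −10 min, left out, at 1.64 to 2.61 and 3.51 to 4.0 for the BAT pair and −3.07 to −2.15 and −3.05 to −2.35 for the LEU pair at 7 min and 24 min. No member result that was called changed direction. Over the alternatives other than those added after seeing the data, of the member results, 303 stayed on their side of the threshold, 22 dropped below it and 5 passed it. The causes were not tested.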

Other observations

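Among the 50 genes most correlated with LEU9 over the 14 arrays, 17 carried a ribosomal protein symbol, beside 2.24% of all 5449 genes, a count chosen after the correlations were seen. The number was 17 with array medians subtracted and 20 without the BY012 array at −10 min. ILV3 had 24 such genes, which became 6 without that array, BAT1 had 15, which became 2, and ILV5 had 10, which became 2. For ILV1 the count was 11 and became 20, and for ILV2 it was 0 and became 15. LEU4, LEU1, ILV6 and BAT2 had 0 with and without that array.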
